A study of Mus musculus with 10 samples.

Results

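This report describes 30 genes of GABA signalling and of interneurons in 3 regions of the adult mouse brain, chosen by name and matched by Ensembl identifier among 47729 genes in the deposited count table. They are 11 subunits of the GABA-A receptor (Gabra2, Gabra3, Gabra4, Gabra5, Gabrb1, Gabrb2, Gabrg1, Gabrg3, Gabrd, Gabre, Gabrq), the 2 subunits of the GABA-B receptor (Gabbr1, Gabbr2), and 6 genes of GABA synthesis, transport, breakdown and receptor anchoring (Gad1, Gad2, Slc32a1, Slc6a11, Abat, Gphn). The other 11 are interneuron genes, of which 5 encode peptides, calcium-binding proteins or reelin (Pvalb, Sst, Vip, Calb2, Reln) and 6 mark interneuron lineages (Lhx6, Dlx1, Dlx2, Dlx5, Dlx6, Adarb2). Each library is TruSeq RNA sequencing of prefrontal cortex (PFC), hippocampus (HIP) or hypothalamus (HYP) of CF1 mice on postnatal day 56, from 1 µg of total RNA. The parents had received a normal-protein (NP) or low-protein (LP) diet at mating, the dams stayed on it through pregnancy and nursing, and from weaning on postnatal day 21 all offspring received NP for 5 weeks. PFC and HIP were sampled in both sexes and HYP in males, with 1 library for each combination, so the 10 libraries form 5 LP and NP pairs.

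GABA is the main inhibitory transmitter of the adult brain. It is made from glutamate by glutamate decarboxylase, loaded into synaptic vesicles, and acts on GABA-A receptors, which are chloride channels of several subunits, and on GABA-B receptors, which signal through G proteins. The subunits that a neuron makes set the kinetics, drug sensitivity and place of its receptors. In cortex and hippocampus most GABA comes from local interneurons, which fall into classes marked by parvalbumin, somatostatin, vasoactive intestinal peptide and other proteins, whereas in the hypothalamus many projecting neurons also use GABA.

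The complete libraries held 10256882 to 16265481 counts. CPM are counts scaled to the same library size, here with the TMM sizes given under data processing. On those sizes 3 counts, the limit that a count of 0 allows, equal 0.163 to 0.307 CPM, counting error only. The female NP hippocampus library held 7871010 counts, none of them on chromosome 4 past Park7, on chromosomes 5 to 9, or on X, Y and M. It was treated as missing for genes placed there, so 15 of the 30 genes have values in all 10 libraries and 15 in 9. The regional labels were checked against markers. All 18 hypothalamic markers were higher in HYP than in PFC, with a summed level of 1275 to 1617 CPM against 8.38 to 11.1 CPM in the complete PFC and HIP libraries, and 10 of 12 hippocampal markers were higher in HIP than in PFC. The male NP hippocampus library stood apart in pituitary markers, with 555 CPM over 8 genes against at most 13.1 CPM in the other complete PFC and HIP libraries. The HYP libraries had 217 (NP) and 152 CPM (LP), of which Pomc, also a hypothalamic marker, had 111 and 126 CPM. Whether a library is 1 animal or a pool is not given. With 1 library for each combination, the p-values set each fitted effect against the spread of these libraries around the fit. That spread is not between replicates and may be technical.

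All 30 genes passed the filter on low counts in the comparisons of regions, and most differed between them, as did many genes outside the list. Between HIP and PFC 7 of the 30 were higher in HIP, where 27.3% of all tested genes were higher, and 15 were lower, where 26.1% of all tested genes were lower. Between HYP and PFC 12 were higher, against 33.2% of all tested genes, and 12 were lower, against 30.5%. Between HYP and HIP 13 were higher, against 30.4%, and 14 were lower, against 29.9%. The median log2 difference over the 30 genes was -0.36 for HIP against PFC, 0.01 for HYP against PFC and -0.15 for HYP against HIP, and over all genes tested it was 0.02 for HYP against PFC and closer to 0 in the others. The calls come from edgeR's quasi-likelihood test with sex and diet as terms, at a Benjamini-Hochberg adjusted p of 0.05 over all genes. In bulk tissue fewer cells of a type and less RNA per cell cannot be told apart.

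**Figure D1:**
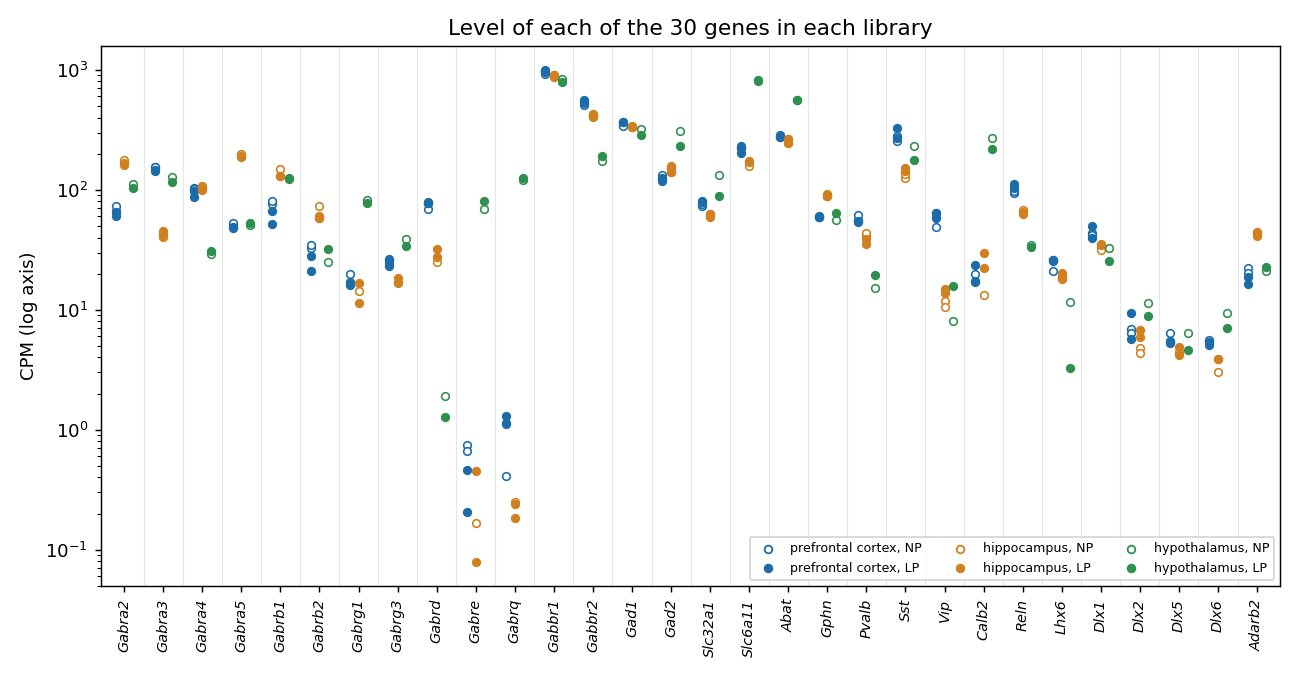
Level of each of the 30 genes in each library, in CPM on a log axis, with regions by colour and NP open, LP filled; genes with no value in the female NP hippocampus library have 3 hippocampal points. Gabre and Gabrq lie between 0.0795 and 1.30 CPM in PFC and HIP and between 69.6 and 126 CPM in HYP.

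Per kilobase of exon, the measure that allows levels of different genes to be compared, Sst was highest in each region, at 393 ± 44.3 CPM per kb in PFC (SD, n = 4), 192 ± 15.5 in HIP (n = 4) and 283 ± 54.4 in HYP (n = 2). Gabbr1 was second in PFC, at 124 ± 3.30 CPM per kb, and second in HIP, at 115 ± 1.71. In HYP Slc6a11 was second, at 161 ± 3.38, and Calb2, sixteenth in PFC at 11.2 ± 1.72 CPM per kb, was the third at 140 ± 20.03. Neighbours in the order had overlapping libraries in 15 of 29 steps in PFC, 17 of 29 in HIP and 14 of 29 in HYP, so that the order within those pairs is not resolved.

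**Figure D2:**
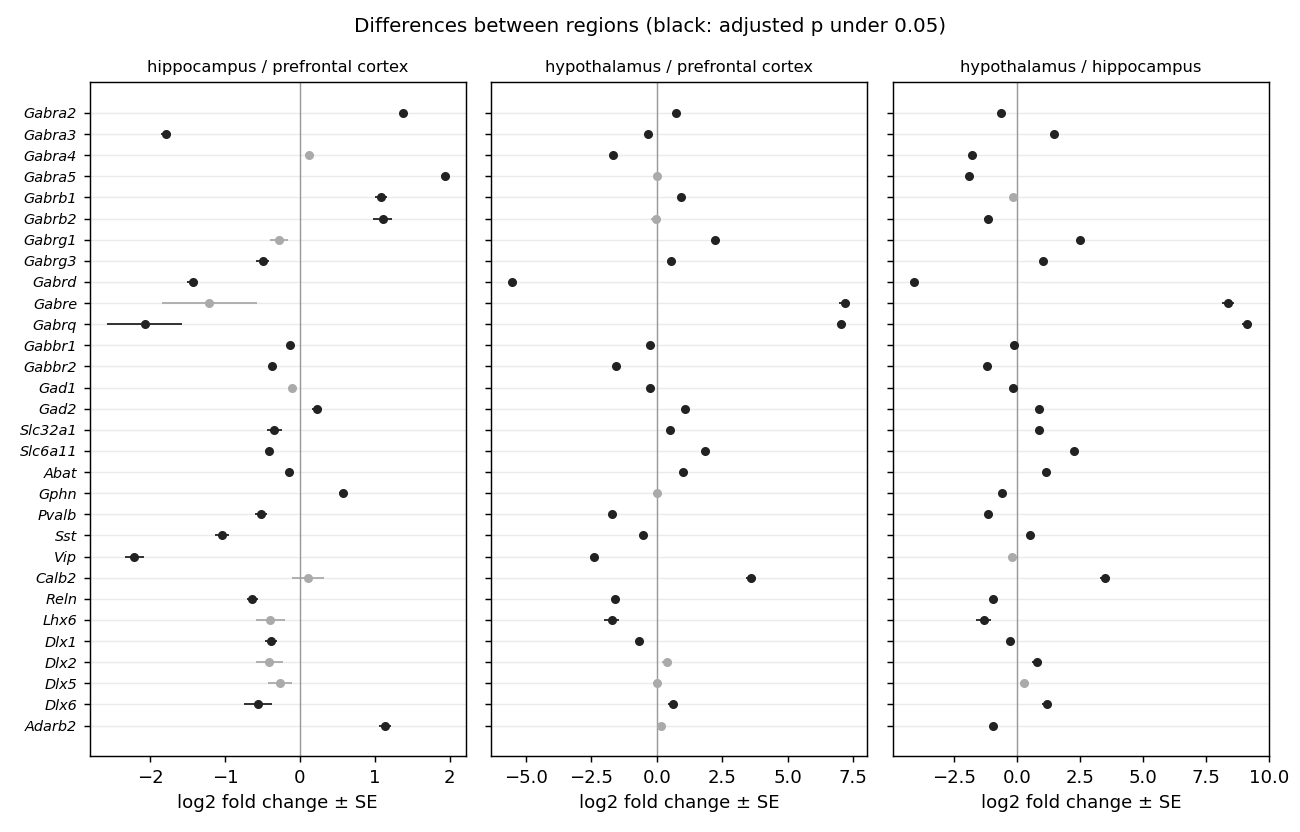
Log2 fold change with its standard error for the 30 genes in each of the 3 comparisons of regions, from edgeR's quasi-likelihood fit; black points have an adjusted p under 0.05. The horizontal scales differ, since HIP against PFC spans -2.21 to 1.93 and HYP against HIP spans -4.09 to 9.12.

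The alpha subunits differed most plainly in which of them led in each region. Gabra5, whose receptors are largely extrasynaptic and are known for their abundance on hippocampal pyramidal cells, had 51.9, 49.4, 52.6 and 48.3 CPM in the PFC libraries (male NP, male LP, female NP, female LP), 199, 190 and 189 CPM in HIP (male NP, male LP, female LP) and 50.8 and 53.1 CPM in HYP (NP, LP). Each HIP library was above each library of the other regions, and PFC and HYP overlapped. The log2 difference of HIP from PFC was 1.93 ± 0.05 (SE, adjusted p = 3.25e-12). Gabra3, an alpha subunit common in monoamine neurons and in deep cortex, had 156, 142, 154 and 146 CPM in PFC, 43.2, 45.5 and 40.7 CPM in HIP and 128 and 116 CPM in HYP. It was lowest in HIP, by -1.79 ± 0.06 on the log2 scale against PFC (adjusted p = 1.84e-11), with no overlap between any of the 3 regions. Gabra2 is found at the axon initial segment. It ran from 60.2 to 73.5 CPM in PFC, 103 to 113 in HYP and 161 to 178 in HIP, rising without overlap. Gabra4, a partner of the delta subunit in forebrain, was at 87.8 to 103 CPM in PFC and 100 to 108 in HIP, where the libraries overlapped and the test was not passed (adjusted p = 0.0828), and at 29.4 and 31.0 CPM in HYP, lower than in PFC by -1.68 ± 0.08 on the log2 scale (adjusted p = 1.75e-10).

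Of the summed per-kilobase level of these 4 alpha genes, Gabra3 made up 47.8% ± 0.415 in PFC (SD, n = 4), 9.55% ± 0.608 in HIP (n = 3) and 45.9% ± 1.53 in HYP (n = 2). Gabra5 made up 21.3% ± 0.562 in PFC, 56.3% ± 0.314 in HIP and 25.8% ± 1.65 in HYP. Gabra2 had 10.9%, 19.2% and 20.9%, and Gabra4 20.05%, 14.98% and 7.34%, in the same order of regions. For Gabra3 and Gabra5 the shares varied far less within a region than between HIP and the others. With the length of the longest transcript in place of all exons, an alternative chosen after the data were seen, Gabra5 had 52.2% in HIP and Gabra3 43.1% in PFC, and in PFC Gabra4 (25.0%) stood above Gabra5 (19.97%).

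**Figure D3:**
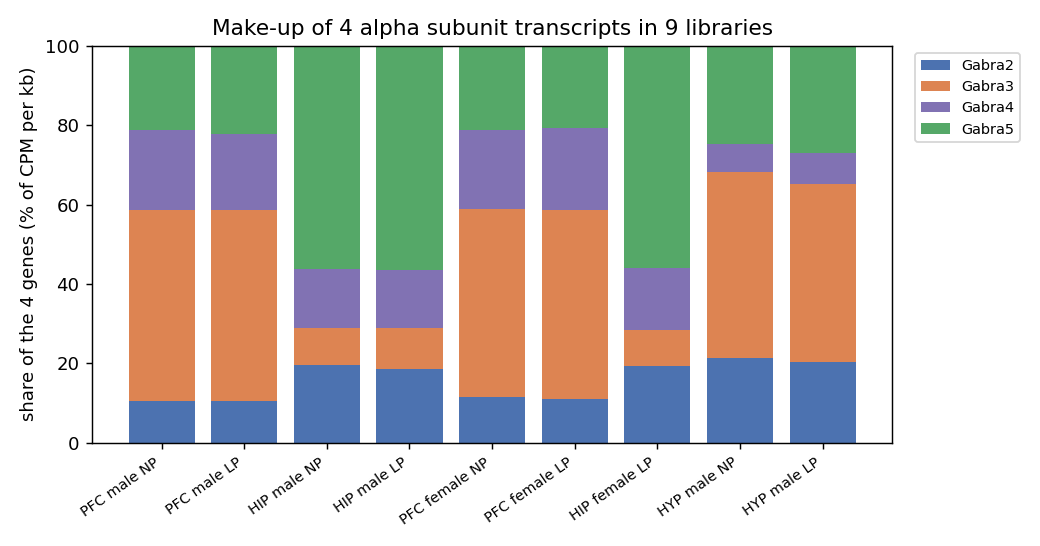
Share of each of 4 alpha subunit genes in their summed CPM per kb, as stacked bars for the 9 libraries that measured all 4. Gabra5 fills 56.0 to 56.6% of the HIP bars and 20.8 to 22.1% of the PFC bars.

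Both beta subunits were higher in HIP than in PFC. Gabrb1 had 75.4, 51.5, 80.8 and 66.4 CPM in PFC, 150, 131 and 131 CPM in HIP and 124 and 122 CPM in HYP. It was higher than in PFC in HIP (1.08 ± 0.08, adjusted p = 7.24e-08) and in HYP (0.91 ± 0.10, adjusted p = 1.49e-06). Gabrb2, a subunit of the commonest synaptic receptors, had 32.7, 20.9, 34.8 and 28.3 CPM in PFC, 73.7, 60.2, 58.0 and 58.4 CPM in HIP (male NP, male LP, female NP, female LP) and 25.2 and 32.1 CPM in HYP. It was higher in HIP than in PFC by 1.10 ± 0.13 on the log2 scale (adjusted p = 5.72e-06), while HYP and PFC overlapped (-0.05 ± 0.17, adjusted p = 0.827). Per kilobase, Gabrb1 stood to Gabrb2 as 1.09 ± 0.0339 in PFC, 0.990 ± 0.0489 in HIP and 2.01 ± 0.370 in HYP.

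Both gamma subunits were highest in HYP. Gabrg1, a gamma subunit also made by glia, had 16.0 to 19.7 CPM in PFC, 11.3 to 16.8 in HIP and 81.9 and 78.0 in HYP, where it was higher than in PFC by 2.22 ± 0.11 on the log2 scale (adjusted p = 4.20e-10). Gabrg3 had 23.1 to 26.5 CPM in PFC, 16.7 to 18.4 in HIP and 38.5 and 33.9 in HYP, with no overlap between regions. Gabrd, the delta subunit of extrasynaptic receptors that respond to neurosteroids, went the other way. Its CPM was 69.4, 79.4, 76.9 and 77.7 in PFC, 25.1, 27.6 and 32.3 in HIP, and 1.91 and 1.27 in HYP. The 35 and 21 counts behind the HYP values lay above the 3-count limit, and the log2 difference from PFC was -5.52 ± 0.14 (adjusted p = 4.26e-13). Gabra4, its usual partner, was lower in HYP too, by less.

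The largest differences among the 30 genes were those of Gabre and Gabrq, the epsilon and theta subunits, which are known from a few groups of neurons in hypothalamus and brainstem. Gabre had 0.743, 0.459, 0.661 and 0.204 CPM in PFC, 0.168, 0.0795 and 0.455 CPM in HIP, and 69.6 and 81.1 CPM in HYP. Gabrq had 0.413, 1.30, 1.13 and 1.12 CPM in PFC, 0.251, 0.238 and 0.182 CPM in HIP, and 120 and 126 CPM in HYP. The cortical and hippocampal values rest on few counts, so folds are given from pooled counts with exact 95% intervals that cover counting error. The 2620 HYP counts of Gabre against 24 in PFC gave a 142-fold difference (95.6 to 223), and against 8 in HIP a 333-fold difference (169 to 772). The 4292 HYP counts of Gabrq against 45 in PFC gave 124-fold (92.9 to 171), and against 8 in HIP 546-fold (277 to 1264). Gabrq was also called lower in HIP than in PFC (adjusted p = 0.00303), on those 8 and 45 counts.

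Gabre and Gabrq lie in 1 cluster on the X chromosome with Gabra3 between them, over 587 kb (chrX:72255999-72842602, GRCm38). Gabra3 shared their pattern only in part. Between HYP and PFC it did not, being at 116 to 128 CPM in HYP and 142 to 156 CPM in PFC. At 40.7 to 45.5 CPM in HIP, it was higher in HYP than in HIP (1.46 ± 0.07 on the log2 scale, adjusted p = 2.27e-10), as were Gabre and Gabrq. Like Gabrq, it was called lower in HIP than in PFC. The upstream sequences of Gabre and Gabrq are shown because these neighbours differed so far between regions. They are from RefSeq (GRCm38.p6), which had promoter windows for 25 of the 30 genes, and each is cut to bases outside annotated exons. Capitals mark GGGCGG or its complement CCGCCC, and CAGGTG. The first motif occurs in 35.7% and the second in 20.2% of 32851 promoter windows of the same length, on either strand, so both are common.
Gabre, chrX:72274804-72274971, minus strand: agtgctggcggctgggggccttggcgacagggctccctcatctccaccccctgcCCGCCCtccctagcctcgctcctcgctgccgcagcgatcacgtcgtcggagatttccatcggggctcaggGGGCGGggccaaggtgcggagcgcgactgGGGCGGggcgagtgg
Gabrq, chrX:72824928-72825177, plus strand: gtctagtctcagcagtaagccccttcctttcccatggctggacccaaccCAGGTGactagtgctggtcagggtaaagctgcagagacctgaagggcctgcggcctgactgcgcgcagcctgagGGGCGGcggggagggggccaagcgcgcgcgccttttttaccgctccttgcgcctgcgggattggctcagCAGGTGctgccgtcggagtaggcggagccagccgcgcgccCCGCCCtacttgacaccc
The Gabre stretch held 3 copies of the GC-rich motif, and the Gabrq stretch 2 copies of it and 2 of CAGGTG. The whole Gabre window also holds CAGGTG, outside the printed stretch. A match to these letters is a description and not a binding site.

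Other clusters also held neighbours with unlike patterns. On chromosome 5, Gabrg1, Gabra2, Gabra4 and Gabrb1 lie within 1398 kb, and between HYP and PFC Gabrg1, Gabra2 and Gabrb1 were higher while Gabra4 was lower. Gabra4 and Gabrb1 are on opposite strands and share 46 exon bases at their starts, so some of their reads could be exchanged if strand was not used in counting. On chromosome 7, Gabrg3 and Gabra5 lie within 794 kb, and between HIP and PFC Gabra5 was higher while Gabrg3 was lower, by -0.50 ± 0.09 on the log2 scale (adjusted p = 0.000297).

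The 2 GABA-B subunits, which work as an obligatory pair, were unequal across regions. Gabbr1 varied little, from 929 to 987 CPM in PFC, 877 to 905 in HIP, and 843 and 799 in HYP, though it was called lower in HYP than in PFC (-0.25 ± 0.05, adjusted p = 0.000431). Gabbr2 was at 510 to 564 CPM in PFC, 406 to 426 in HIP, and 175 and 191 in HYP, with no overlap, and the log2 difference of HYP from PFC was -1.57 ± 0.06 (adjusted p = 2.29e-11). Per kilobase, Gabbr1 stood to Gabbr2 as 1.55 ± 0.0394 in PFC (SD, n = 4), 1.84 ± 0.0230 in HIP (n = 4) and 3.88 ± 0.385 in HYP (n = 2).

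The 2 glutamate decarboxylases also parted. Gad1, which makes most GABA in cell bodies, was nearly level, at 352, 370, 339 and 365 CPM in PFC, 339, 335, 331 and 337 in HIP, and 324 and 285 in HYP, where it was lower than in PFC by -0.26 ± 0.06 on the log2 scale (adjusted p = 0.00169). Gad2, the form held at nerve terminals, had 134, 118, 123 and 124 CPM in PFC, 148, 141, 141 and 158 in HIP and 306 and 233 in HYP. It was higher in HYP than in PFC by 1.09 ± 0.09 on the log2 scale (adjusted p = 8.65e-08). The ratio of Gad2 to Gad1 per kilobase was 0.456 ± 0.0344 in PFC (SD, n = 4), 0.570 ± 0.0285 in HIP (n = 4) and 1.15 ± 0.118 in HYP (n = 2), without overlap between regions.

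Of the transporters and the breakdown enzyme, Slc32a1, the vesicular GABA transporter, had 73.0 to 81.1 CPM in PFC, 59.8 to 63.0 in HIP, and 134 and 89.5 in HYP. Its higher level in HYP than in PFC (0.51 ± 0.12, adjusted p = 0.00189) rested on the NP library, without which the difference was 0.19 (adjusted p = 0.0612). An antisense transcript, Gm14205, covers 24.9% of its exons but had 0 counts in all 10 libraries. Slc6a11, a GABA uptake transporter of astrocytes, had 201 to 233 CPM in PFC, 159 to 172 in HIP, and 803 and 828 in HYP, a log2 difference of HYP from PFC of 1.84 ± 0.06 (adjusted p = 8.69e-12). Of 9 other astrocyte markers 2 were higher and 4 lower in HYP than in PFC, and their sum was 4434 to 5359 CPM in PFC and 3653 and 3676 CPM in HYP; their part in the Slc6a11 difference was not tested. Abat, GABA transaminase, which breaks GABA down, had 275 to 285 CPM in PFC, 245 to 265 in HIP, and 557 and 559 in HYP (HYP against PFC 1.01 ± 0.05, adjusted p = 1.55e-10). Gphn, gephyrin, the scaffold that holds GABA-A and glycine receptors at synapses, was highest in HIP, at 88.6 to 91.98 CPM against 58.9 to 60.3 in PFC and 55.8 and 63.9 in HYP (HIP against PFC 0.58 ± 0.05, adjusted p = 3.04e-07).

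The genes that mark interneuron classes were mostly lower outside PFC. Vip, vasoactive intestinal peptide, had 63.5, 58.3, 48.6 and 63.5 CPM in PFC, 11.8, 14.8, 10.6 and 13.9 in HIP, and 8.12 and 15.8 in HYP. It was lower in HIP than in PFC by -2.21 ± 0.12 on the log2 scale (adjusted p = 3.69e-09), and HIP and HYP overlapped. Sst, somatostatin, had 255, 329, 279 and 271 CPM in PFC, 126, 152, 134 and 142 in HIP, and 231 and 176 in HYP. It was lower in HIP by -1.04 ± 0.09 on the log2 scale (adjusted p = 3.88e-07) and lower in HYP than in PFC by -0.52 ± 0.12 (adjusted p = 0.00159). Pvalb, parvalbumin of fast-spiking cells, had 53.4 to 61.5 CPM in PFC, 35.05 to 43.8 in HIP, and 15.1 and 19.4 in HYP, with no overlap. Reln, reelin, which layer 1 cells and some other interneurons secrete in the adult, had 93.7 to 112 CPM in PFC, 63.4 to 68.3 in HIP, and 34.5 and 33.1 in HYP, also with no overlap.

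Sst and Vip are known as genes that respond to cyclic AMP through an element in the promoter, and their levels return in the comparisons of diet, where neither passed the test over all libraries, so the stretch is shown. Capitals mark TGACGTCA in Sst and TGACGT in Vip.
Sst, chr16:23890874-23890903, minus strand: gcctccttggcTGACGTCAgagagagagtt
Vip, chr10:5639127-5639156, plus strand: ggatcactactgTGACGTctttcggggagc
The match begins 48 bases before the RefSeq start of Sst and 79 before that of Vip. The GENCODE M21 model of Sst begins farther upstream, and in it the Sst stretch lies in the untranslated part of the first exon. The full palindrome TGACGTCA occurs in 1.79% of the 32851 promoter windows, and TGACGT or its complement ACGTCA in 7.51%. Among the 25 matched genes the palindrome was found in Sst alone, and the shorter form in Sst, Vip and Dlx2. The match is a description and not a measured site.

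Calb2, calretinin, was the exception among the class markers. It had 17.2, 23.5, 19.9 and 17.3 CPM in PFC, 13.2, 29.8 and 22.1 in HIP, and 268 and 219 in HYP. The HIP and PFC libraries overlapped, and HYP exceeded PFC by 3.58 ± 0.20 on the log2 scale (adjusted p = 1.24e-09). Calretinin is made by many hypothalamic and thalamic neurons as well as by interneurons. In the male pair of HIP its counts were 158 in NP and 375 in LP, the widest spread of any of the 30 genes within HIP among those above 10 CPM.

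Lhx6, a factor of interneurons from the medial ganglionic eminence, had 21.1 to 26.2 CPM in PFC, 18.1 to 20.1 in HIP, and 11.5 and 3.26 in HYP. Its lower level in HYP (-1.73 ± 0.28 against PFC, adjusted p = 0.000103) was -1.05 without the LP and -2.97 without the NP hypothalamus library. Dlx1, a homeobox factor of GABA neurons, had 39.9 to 50.002 CPM in PFC, 31.7 to 35.4 in HIP, and 32.9 and 25.7 in HYP, and was lower than in PFC in both. Dlx1as, on the other strand over 335 exon bases of Dlx1, had 9 to 57 counts per library. Dlx2, Dlx5 and Dlx6 lay between 3.02 and 11.3 CPM in all libraries. Dlx5 passed the test in none of the 3 comparisons, and Dlx2 only between HYP and HIP (0.79 ± 0.20, adjusted p = 0.00379). Dlx6 was lowest in HIP and highest in HYP, a difference of 1.16 ± 0.19 (adjusted p = 0.000101). Adarb2, a marker of interneurons from the caudal ganglionic eminence, went against Vip of the same origin. It had 16.5 to 22.3 CPM in PFC, 41.2 to 44.8 in HIP, and 20.9 and 22.6 in HYP, higher in HIP than in PFC by 1.14 ± 0.08 on the log2 scale (adjusted p = 3.13e-08).

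Other genes of the pathway were counted from 3 lists that leave out the 30 genes. Of 13 genes of GABA synthesis, transport and breakdown, 6 were higher and 3 lower in HYP than in PFC, among them Slc6a12 (3.73 on the log2 scale), Glul (-1.05) and Slc38a1 (0.60). Between HIP and PFC 1 was higher and 5 lower. Of 28 tested genes of the inhibitory synapse and receptor partners, 8 were higher and 15 lower in HYP than in PFC, and 11 higher and 10 lower in HIP than in PFC, where Kctd12, a GABA-B auxiliary subunit, differed by 1.43 and Mdga1 by 2.76. Of 36 tested interneuron genes, 9 were higher and 20 lower in HIP than in PFC, and 12 higher and 20 lower in HYP than in PFC. The latter were led by Cck (-4.78), Lamp5 (-4.11), Zcchc12 (3.19) and Nkx2-1 (7.88). Several of these also mark other cells, and Nkx2-1 is on the hypothalamic list. Markers of glutamatergic neurons summed to 9281 to 10184 CPM in the complete PFC and HIP libraries and to 835 and 901 CPM in HYP. Of these 10 genes 8 were lower and 1 higher in HYP than in PFC. Slc17a6, the higher gene, had 7.72 to 18.5 CPM in the complete PFC and HIP libraries and 235 and 290 CPM in HYP. Striatal projection neurons also use GABA. Their markers summed to 237 to 264 CPM in PFC, 170 to 184 in HIP and 451 to 468 in HYP. Of these 14 genes 9 were higher and 5 lower in HYP than in PFC. Drd1 was among the lower, at 13.0 to 16.0 CPM in PFC and 3.27 and 4.29 CPM in HYP. The part of either marker list in the regional differences was not tested.

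Over the 5 LP and NP pairs none of the 30 genes passed the test for diet, where 1.25% of all tested genes did. Of the 30, 3 had an unadjusted p under 0.05, and the smallest adjusted p was 0.144, in edgeR's quasi-likelihood test. These were Gabrb1 (-0.25 ± 0.07 on the log2 scale), lower in LP in 4 of 4 pairs, Gabra2 (-0.15 ± 0.05), lower in 4 of 4 pairs, and Vip (0.30 ± 0.12), higher in 4 of 5 pairs. The median over the 30 genes was -0.03, and the values ran from -0.25 to 0.30. DESeq2 called none of the 30 either. Vip passed without the male prefrontal cortex pair (0.50, adjusted p = 0.0302), the pair in which it was lower in LP, and Gabrb1 passed without the hypothalamus pair (-0.33, adjusted p = 0.0274). Among the other pathway genes Slc6a12, a betaine and GABA transporter, was higher in LP (0.82 on the log2 scale), the 1 call of 13, and none of 28 synaptic and 36 interneuron genes was called. Of 14 immediate early genes, 10 were higher in LP in the same test.

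**Figure D4:**
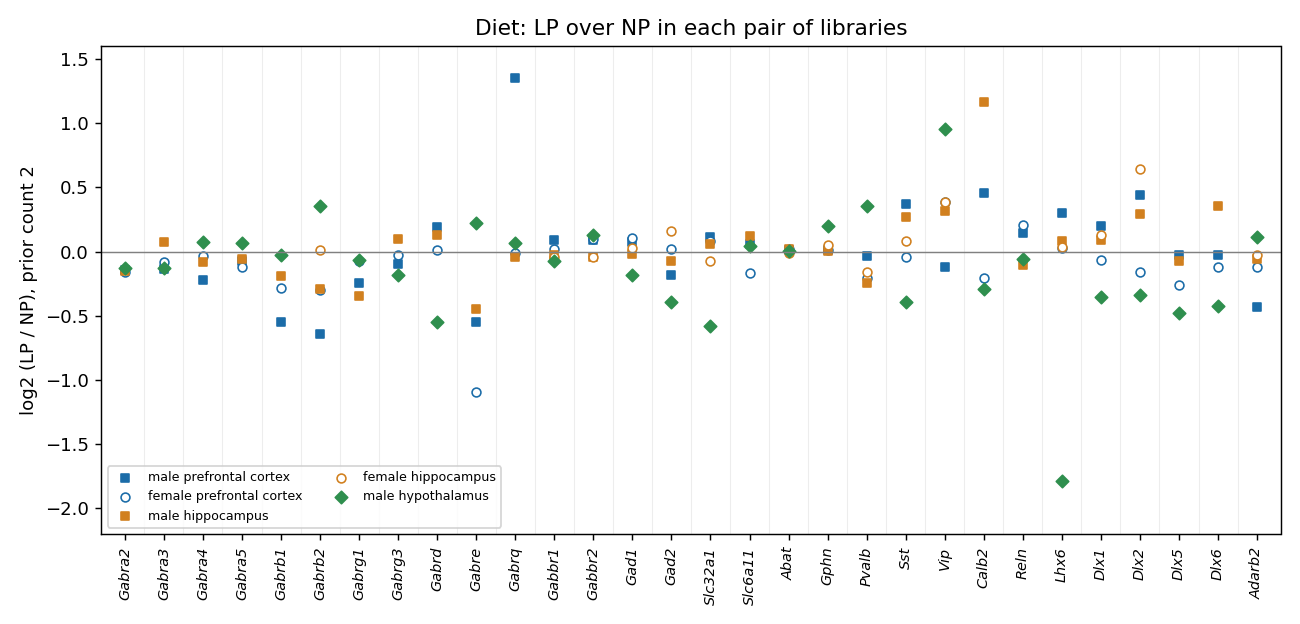
Log2 ratio of LP to NP for each of the 30 genes in each pair of libraries, with a prior count of 2; 15 genes have no female hippocampus value. Most points lie within 0.5 of 0, and the farthest is Lhx6 in the hypothalamus at -1.79; Gabre and Gabrq rest on few counts outside the hypothalamus.

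Within PFC 1 of the 15 genes that could be tested passed, Gabrb2, against 1.79% of all tested genes. Its level was 32.7 CPM in the male NP and 20.9 CPM in the male LP library, and 34.8 and 28.3 CPM in the female ones. Both LP libraries were below both NP libraries, while in the hypothalamus pair Gabrb2 was higher in LP (25.2 and 32.1 CPM, with separate counting intervals) and in the female hippocampus it was level (58.0 and 58.4 CPM). In PFC the log2 difference was -0.48 ± 0.11 (adjusted p = 0.0350, edgeR's quasi-likelihood test, 2 residual degrees of freedom). The call was lost with DESeq2 (-0.47, adjusted p = 1.000), with RLE size factors (adjusted p = 0.0536), without the low-count filter (adjusted p = 0.283), without the male prefrontal cortex pair (-0.30, adjusted p = 0.774) and without the female one (-0.65, adjusted p = 0.0889). Myelin markers were lower in LP in the same libraries, with all 7 tested called lower. The sums over all 10 listed genes were 2848 CPM (NP) and 1832 CPM (LP) for the male pair. For the female pair they were 1966 and 1672 CPM. Summed over all 14 listed, immediate early genes were higher in LP, at 3691 and 4463 CPM in males and 1941 and 3727 in females. Their part in the Gabrb2 result was not tested.

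Gabrb1, the other beta subunit, could not be tested in that fit, since the incomplete library lacks it. It was also lower in LP in both pairs, at 75.4 CPM (NP) and 51.5 CPM (LP) for the male pair and 80.8 and 66.4 CPM for the female pair. With the incomplete library left out for every gene, which leaves 1 residual degree of freedom, the difference was -0.42 (adjusted p = 1.86e-05). That fit called 4.28% of all genes, and it gave Calb2 in HIP an adjusted p of 4.30e-11 from a single pair, which has no spread between pairs to measure. The remaining 14 testable genes lay between -0.29 (Adarb2, adjusted p = 0.262) and 0.20 (Dlx2, adjusted p = 0.723). Of the other pathway genes, Mdga1 was higher (0.58) and Erbb4, the neuregulin receptor of interneurons, lower (-0.55) in LP, the 1 call of 16 synaptic and the 1 call of 23 interneuron genes.

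**Figure D5:**
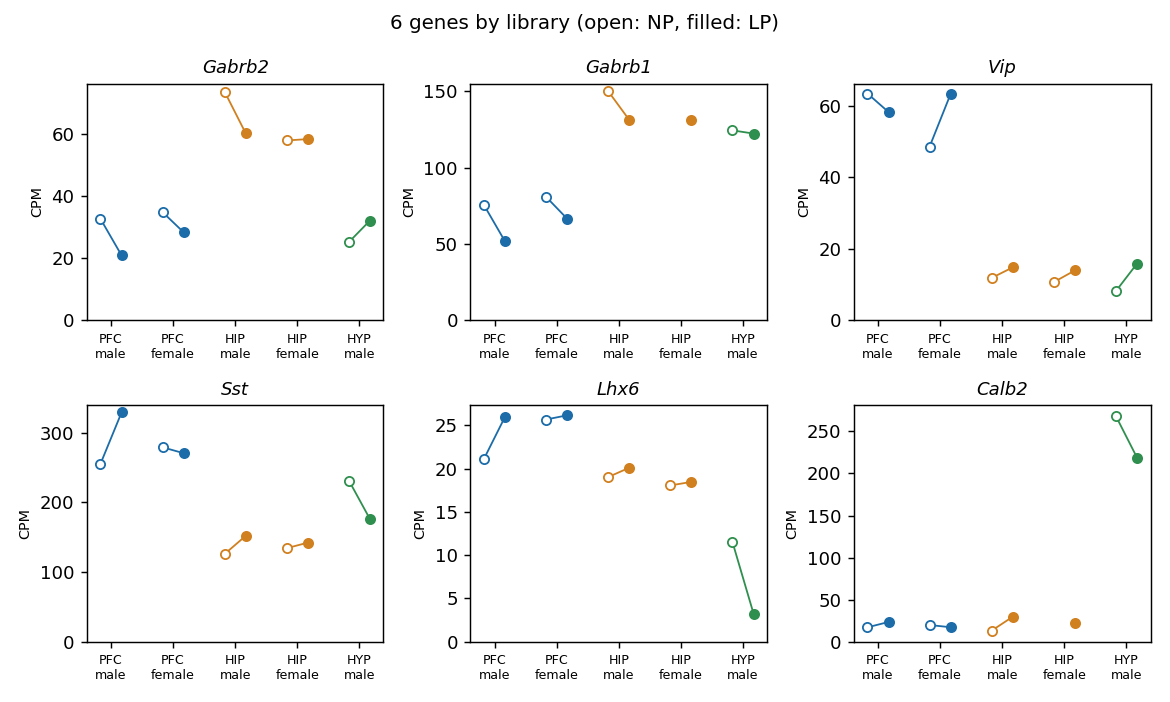
CPM of 6 genes in each LP (filled) and NP (open) pair, on axes that start at 0; Gabrb1 and Calb2 have no female NP hippocampus value. Gabrb2 is lower in LP in both PFC pairs and in the male hippocampus, level in the female hippocampus and higher in LP in the hypothalamus, and Lhx6 is at 11.5 (NP) and 3.26 CPM (LP) in the hypothalamus.

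Within HIP none of the 15 testable genes passed, against 0.328% of all tested genes, and 3 had an unadjusted p under 0.05. These were Pvalb (-0.21 ± 0.09), Vip (0.35 ± 0.16) and Dlx2 (0.47 ± 0.21), the last on 50 to 75 counts per library, and DESeq2 called none. Gabrb2 had 73.7 CPM (NP) and 60.2 CPM (LP) for the male pair and 58.0 and 58.4 CPM for the female pair. Calb2 had 13.2 CPM in NP and 29.8 in LP in the male pair, a log2 ratio of 1.16, with a single library on each side. Thalamic markers, which leave out Calb2, were higher in LP in that pair for 8 of 9 with 10 counts, and summed to 142 CPM in NP and 167 in LP. Their part in the Calb2 ratio was not tested. The diet difference between HIP and PFC was called for none of the 15, and for 0.0% of all tested genes (0 of 11876, with 637 at an unadjusted p under 0.05, and 0 by DESeq2). For Gabrb2 it was 0.33 ± 0.14 (adjusted p = 0.908), so the change in PFC is not shown to differ from that in HIP.

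The hypothalamus pair has 1 library per diet and allows no test. After its running number, the label in the title of the LP library differs from the label that all other libraries share, leading zeros aside. What the label stands for is not given, and in this pair it cannot be told apart from diet. Past 1.5-fold with separate 95% counting intervals, 1 of the 30 genes was higher in LP, against 3.27% of all genes, and 1 was lower, against 0.89%. Lhx6 had 212 counts in NP and 54 in LP, which is 11.5 CPM (10.0 to 13.2) and 3.26 CPM (2.45 to 4.26), a log2 ratio of -1.79. Vip had 149 and 262 counts, or 8.12 CPM (6.86 to 9.53) and 15.8 CPM (14.0 to 17.9), a log2 ratio of 0.95. The 6 genes of synthesis, transport, breakdown and anchoring lay on both sides within 1.5-fold. Slc32a1 was at 134 CPM in NP and 89.5 in LP, Gad2 at 306 and 233 and Gad1 at 324 and 285, while Slc6a11 was at 803 and 828, Abat at 557 and 559 and Gphn at 55.8 and 63.9. Sst was at 231 and 176 CPM and Calb2 at 268 and 219. Of the 30 genes 18 had a negative ratio, where 50.2% of all genes did. Some hypothalamic markers differed as far between the same 2 libraries, with Hcrt at 83.0 CPM in NP and 17.5 in LP, Avp at 294 and 156 and Oxt at 195 and 88.1, while 10 of the 18 were higher in LP. The summed hypothalamic markers were 1617 CPM in NP and 1275 in LP. Their part in the ratios of Lhx6 and Vip was not tested.

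Between females and males, over 4 pairs of PFC and HIP, none of 29 tested genes passed, against 0.465% of all tested genes, and Gabre was too low to be tested. Of the 29, 3 had an unadjusted p under 0.05 and DESeq2 called none. The log2 differences, female minus male, ran from -0.24 (Calb2) to 0.32 (Gabrq, on few counts), and Abat differed by 0.08 ± 0.04 and Gabrb1 by 0.14 ± 0.07. Calb2 passed without the NP prefrontal cortex pair (-0.44, adjusted p = 0.0370). The effect of diet, female minus male, differed for none of 15 testable genes, against 0.173% of all tested genes. The smallest p was that of Sst (-0.32 ± 0.08, unadjusted p = 0.00130, adjusted p = 0.244), which was 1.29-fold higher in LP in male PFC and 1.21-fold higher in male HIP, with 0.970-fold and 1.06-fold in the female pairs. Without the male hippocampus pair the difference was -0.37 for Sst and 0.50 for Vip, each fit then resting on 1 male pair.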

How the data were processed

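RNA was measured in 10 TruSeq libraries. Per the submitters' processing notes, CASAVA, FastQC 0.10.1 and STAR 2.5.0a were used with mm10; the counting tool, its strand setting and the annotation were not given in the sources used here. What the authors deposited are raw counts for each Ensembl gene, not normalized. GENCODE M21 (GRCm38) matched 47310 of 47729 genes and gave names, coordinates and exon lengths. The female NP hippocampus library was treated as missing for 19598 genes, since 4480 of 4480 expressed genes past its break had 0 counts. The smallest chi-square per degree of freedom between libraries was 2.21, so no library was counted as a duplicate.

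Counts were filtered (filterByExpr, minimum count 10), scaled by TMM and tested with the quasi-likelihood F test of edgeR 4.0.16 in R 4.3.3. Genes measured in all libraries were fitted on 10 libraries, the others on 9, with Benjamini-Hochberg adjustment over both sets and a threshold of 0.05. Regions had sex and diet as terms. Diet was tested with a term for each stratum (region by sex), within PFC and HIP, and between regions and sexes, the last 3 for genes measured in all libraries only. CPM use TMM sizes, and the incomplete library was put on that scale through the genes it measured. Single pairs are log2 ratios (prior count 2) with exact 95% Poisson intervals and no test. The intervals and limits cover counting error only.

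Alternatives were DESeq2 1.42.0 (no independent filtering), RLE size factors, no low-count filter, the earlier quasi-likelihood method, leaving out the incomplete library, and leaving out each library or pair. On simulated counts, 64% of changes of 0.5 log2 and 98% of changes of 1 log2 were recovered for diet in PFC. For diet over 5 pairs these were 93.5% and 100%. The simulation gave every gene the same set spread, changed only well-counted genes, and made each change equal in every pair concerned. The real counts need not meet these settings, so the shares are not the recovery in these data. All 30 genes are described, and at most 4 called genes of each other list and comparison are named, by smallest p; 1 gene that this rule names is not reported here. The genes and lists were chosen with earlier results of these data known.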

Additional observations from a re-analysis of the deposited data

Results flagged for a closer look

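Among 45 sets of 4 libraries of 1 region and gene, 3 held a library far from the other 3 by Dixon's test, and chance alone flags about 1 in 20. Lhx6 was at 21.1 CPM in the male NP prefrontal cortex library and at 25.7 to 26.2 CPM in the other 3. Gabrb2 was at 73.7 CPM in the male NP hippocampus library, the library with high pituitary markers, and at 58.0 to 60.2 CPM in the other 3. Gphn was at 91.98 CPM in the female LP hippocampus library and at 88.6 to 89.1 CPM in the other 3.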

How the results depend on the processing

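Of the regional calls, 20 of 22 for HIP against PFC, 22 of 24 for HYP against PFC and 22 of 27 for HYP against HIP held under every alternative run, and none changed sign. Leaving out 1 library gave 14 to 18 genes lower in HIP than in PFC, against 15. Those lost under at least 1 alternative were Gad2 and Dlx6, then Slc32a1 and Dlx6, then Sst, Dlx2, Gabbr1, Dlx1 and Gad1. Within PFC the count of genes called for diet was 1, and 0 with DESeq2, with RLE size factors and without the low-count filter; leaving out 1 pair gave 0 to 1. Leaving out 1 pair gave 0 to 1 for diet over 5 pairs, 0 to 1 for sex, and 0 to 2 for the difference of diet between sexes. The cause of these changes was not tested. Over all genes, DESeq2 called 111 against 223 for diet over 5 pairs, 14 against 212 within PFC, 11 against 39 within HIP, 33 against 79 for sex and 12 against 19 for the difference of diet between sexes. Without the low-count filter these were 21 within PFC, 5 within HIP, 34 for sex and 0 for the difference between sexes. With the incomplete library left out they were 779, 135, 123 and 9, and the difference of diet between HIP and PFC, 0 genes in the main test, had 60 (1 with the earlier quasi-likelihood method). Over all genes, diet over 5 pairs had 85 without the female PFC pair, 88 without the male HIP pair and up to 245 without another. Within PFC there were 32 without the male and 90 without the female PFC pair, and 482 and 548 without the male and female HIP pairs. Within HIP there were 28 to 97, the highest without the female HIP pair. The difference of diet between HIP and PFC had 0 to 45, with 37 and 45 without the male and female HIP pairs. Sex had 41 without the LP PFC pair and up to 115 without another. The difference between sexes had 5 without the female PFC pair, 62 without the male PFC pair and 213 without the male HIP pair. Tests within regions rest on 2 residual degrees of freedom and on 2 pairs, and 15 genes could not be tested there. The main fit pairs LP and NP by region and sex, and each group has 1 library, so no replicate numbers pair libraries further.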
